A study of Mus musculus with 10 samples.

Results

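The capillary and vessel endothelial genes of the lung were followed here through 10 RNA-seq libraries of mouse lung tissue. The group comprises 10 genes, Pecam1, Cdh5, Cldn5, Vwf, Tek, Tie1, Ednrb, Car4, Gpihbp1 and Plvap, and it was formed by taking every transcript row of the deposited table that carries one of these symbols. All 10 genes were present, with 17 of the 34943 rows that have a symbol and 10 of the 24394 symbols. The Saline group (n = 3) comprised control mice, the OVA group (n = 3) mice in which asthma had been induced by sensitization and intranasal challenge with ovalbumin, and the Herb group (n = 4, called DSE in the study) mice that went through the same ovalbumin protocol and were given an ethanol extract of Descurainia sophia seeds by mouth. All animals were adult female BALB/c mice with no genetic modification named, each library was from whole lung tissue, and the ovalbumin model is a short course of allergic inflammation. OVA vs. Saline addresses the induced asthma, Herb vs. OVA the extract, and Herb vs. Saline what still differed from the controls.

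Endothelial cells line every blood vessel, and in the lung most of them form the capillary net around the alveoli, across which oxygen and carbon dioxide pass. Pecam1, Cdh5 and Cldn5 encode proteins that hold neighbouring endothelial cells together, and Vwf encodes a clotting protein that endothelium of larger vessels stores. Tek encodes the receptor through which angiopoietins keep vessels quiescent, and Tie1 a related receptor that modulates the signal of Tek. Ednrb and Car4 mark the large aerocytes among the alveolar capillary cells, whereas Gpihbp1 and Plvap are associated with the general capillary cells that act as their progenitors.

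The estimated depth of the libraries was 14800000 to 30300000 mapped fragments, and the members rested on 27 (Tek) to 11665 (Cdh5) fragments per library. Counting error alone was therefore 19.4% at the lowest Tek value, 15.1% at the lowest Gpihbp1 value and 10.03% at the lowest Ednrb value, and at most 6.47% for the other members. Values are FPKM, fragment numbers scaled to transcript length and to the mapped fragments of the library, and rows of a gene were summed. The summed FPKM of protein-coding RefSeq rows was 133354 to 147533 in Saline, 39136 to 52995 in OVA and 74117 to 98580 in Herb, and the ribosomal precursor RNA Rn45s was listed at 1201 to 1386, 10014 to 13531 and 3230 to 7019 FPKM. Beside this difference in composition, the median gene was 0.75 lower in OVA than in Saline on the log2 scale. Each difference is therefore given as deposited and after rescaling every library to a common 75th percentile of the gene sums tested, after which that median was 0.08. Samples with the same replicate number were not treated as pairs.

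In the Saline lungs Cdh5 had the highest level of the members with 128.9 ± 15.2 FPKM (SD, n = 3), followed by Pecam1 with 90.6 ± 37.0, Cldn5 with 86.3 ± 11.2, Plvap with 68.2 ± 7.45, Car4 with 48.3 ± 4.26 and Gpihbp1 with 47.7 ± 22.1 FPKM. Tie1 (25.5 ± 7.65 FPKM), Ednrb (22.7 ± 1.38 FPKM) and Vwf (18.6 ± 4.06 FPKM) were lower, and Tek was listed at only 1.16 ± 0.42 FPKM. Neighbours in this order overlapped in range for Cdh5 and Pecam1, Pecam1 and Cldn5, Car4 and Gpihbp1, Tie1 and Ednrb, and Ednrb and Vwf. Each member but Tek was thus at 13.9 FPKM or more in every control library. In the OVA lungs the order was different. Cdh5 stood behind 3 other members with 13.3 ± 5.25 FPKM (n = 3), namely Pecam1 (30.1 ± 7.61 FPKM), Cldn5 (24.1 ± 7.47 FPKM) and Plvap (14.5 ± 4.09 FPKM). The Cdh5 range overlapped those of Plvap, Tie1, Vwf, Gpihbp1 and Car4. In the Herb lungs Pecam1 (59.4 ± 19.4 FPKM, n = 4) and Cldn5 (55.4 ± 15.2 FPKM) stood before Cdh5 (43.1 ± 20.9 FPKM), with overlapping ranges.

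**Figure D1:**
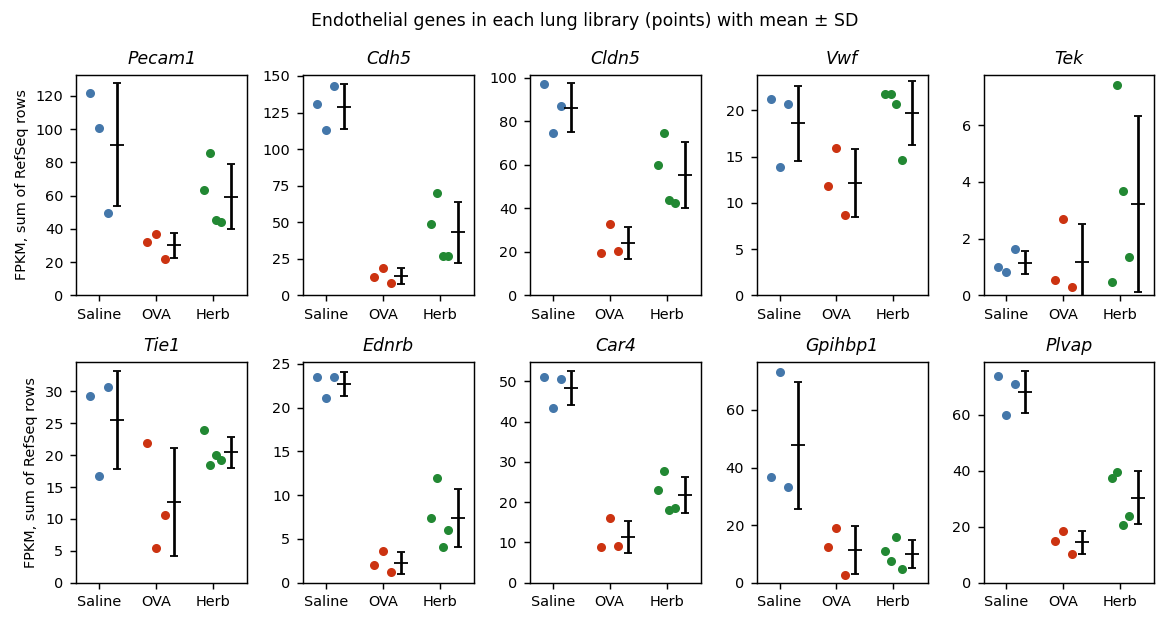
FPKM as deposited (y axis, linear from 0, sum of RefSeq rows) of each of the 10 genes in the Saline (n = 3), OVA (n = 3) and Herb (n = 4) lungs; points are libraries, and the black bar is the mean with the SD, cut off where it would pass below 0. For Cdh5, Ednrb, Car4 and Plvap all Herb libraries sit between the OVA and the Saline libraries, whereas the 3 groups overlap for Vwf, Tek and Tie1.

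Among the junction genes, Cdh5 encodes VE-cadherin of the adherens junctions. On log2(FPKM + 1) it changed by the largest amount in OVA vs. Saline of the 10 members. With a pseudocount of 0.1 Ednrb changed slightly more (-3.38 against -3.34 for Cdh5), so the order of these genes depends on this setting. The Cdh5 row (NM_009868, chromosome 8, 104101613 to 104144504 of GRCm38.p6) had FPKM of 130.7, 112.8 and 143.1 in Saline, 12.8, 18.7 and 8.22 in OVA and 49.0, 70.2, 26.7 and 26.7 in Herb. The groups did not overlap, and Herb replicates 3 and 4 were the nearest to OVA. Cdh5 fell by 3.25 in OVA vs. Saline (log2(FPKM + 1), SE 0.40, limma adjusted p = 0.000193), rose by 1.58 in Herb vs. OVA (SE 0.38, adjusted p = 0.0111) and was lower in Herb than in Saline, at -1.67 (SE 0.38, adjusted p = 0.0161). The last call was lost without Saline replicate 2 (-1.76, limma adjusted p = 0.0512) or 3 (-1.59, adjusted p = 0.0541). After rescaling it was lower in OVA by a log2 fold change of -2.14 (limma adjusted p = 0.0021) and lower in Herb than in Saline by -1.20 (adjusted p = 0.0389), whereas the 0.94 of Herb vs. OVA did not pass (adjusted p = 0.115). In bulk tissue such as this, fewer endothelial cells and less RNA per endothelial cell cannot be told apart.

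Cldn5 encodes claudin-5, the main tight junction protein of endothelium. It (NM_013805, chromosome 16, 18776847 to 18778262) had FPKM of 97.1, 74.7 and 87.1 in Saline, 19.4, 32.8 and 20.3 in OVA and 60.1, 74.9, 44.1 and 42.6 in Herb. All OVA libraries were below all others, and Herb replicate 2 was within the Saline range. Cldn5 fell by 1.83 in OVA vs. Saline (SE 0.27, limma adjusted p = 0.000438) and rose by 1.17 in Herb vs. OVA (SE 0.26, adjusted p = 0.00895). Its Herb vs. Saline difference of -0.66 did not pass (limma adjusted p = 0.0864), but did without Herb replicate 2 (-0.82, adjusted p = 0.0401). After rescaling, only the OVA vs. Saline difference of -0.70 passed (limma adjusted p = 0.0224).

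Pecam1 encodes the adhesion molecule CD31, which platelets and leukocytes also carry. The sum of its 4 rows (chromosome 11, 106654213 to 106715281) was 121.6, 100.5 and 49.6 FPKM in Saline, 31.9, 36.7 and 21.8 in OVA and 63.2, 85.5, 45.3 and 43.9 in Herb. Saline replicate 3 was well below the other Saline lungs and within the Herb range, and the OVA libraries stood below all others. As deposited Pecam1 fell by 1.49 in OVA vs. Saline (SE 0.38, limma adjusted p = 0.00754). The 0.94 of Herb vs. OVA (SE 0.36, limma adjusted p = 0.0579) and the -0.56 of Herb vs. Saline (adjusted p = 0.268) did not pass. Without Saline replicate 3 the Herb vs. OVA difference passed (0.94, limma adjusted p = 0.0333). After rescaling the OVA vs. Saline value was -0.36 (limma adjusted p = 0.438), so that the call for the Pecam1 sum depended on the scaling. Of its 4 rows, NM_001032378 was called lower on both scales (-1.66 and -0.80, limma adjusted p = 0.00142 and 0.0251).

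Ednrb encodes the endothelin B receptor, which clears endothelin-1 and triggers nitric oxide release. The sum of its rows (chromosome 14, 103814615 to 103844508) was 23.5, 21.1 and 23.5 FPKM in Saline, 2.07, 3.65 and 1.18 in OVA and 7.37, 12.0, 4.14 and 6.06 in Herb. The Saline libraries were close to each other, every OVA library was far below them, and every Herb library lay in between. Ednrb fell by 2.91 in OVA vs. Saline (SE 0.35, limma adjusted p = 0.000178) and rose by 1.33 in Herb vs. OVA (SE 0.33, adjusted p = 0.0123). It was lower in Herb than in Saline by -1.58 (SE 0.33, limma adjusted p = 0.0127). The rescaled values were -1.97 in OVA vs. Saline (limma adjusted p = 0.00197), 0.84 in Herb vs. OVA (adjusted p = 0.117) and -1.13 in Herb vs. Saline (adjusted p = 0.0351).

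Car4 encodes the membrane-bound carbonic anhydrase of the capillary surface. It (NM_007607, chromosome 11, 84957754 to 84966054) had FPKM of 51.0, 43.4 and 50.5 in Saline, 8.93, 16.1 and 9.24 in OVA and 23.0, 27.6, 18.0 and 18.5 in Herb, with no overlap between the groups. It fell by 2.03 in OVA vs. Saline (SE 0.24, limma adjusted p = 0.000178), rose by 0.90 in Herb vs. OVA (SE 0.23, adjusted p = 0.0136) and was lower in Herb than in Saline by -1.13 (SE 0.23, adjusted p = 0.012). Without OVA replicate 1 the Herb vs. OVA difference was 0.77 (limma adjusted p = 0.0512). Rescaled, Car4 was lower in OVA vs. Saline by -0.93 (limma adjusted p = 0.00388) and in Herb vs. Saline by -0.67 (adjusted p = 0.0314), and the Herb vs. OVA value of 0.27 did not pass (adjusted p = 0.331).

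Plvap, which encodes the protein of the diaphragms that close endothelial fenestrae and caveolae, had a similar course. It (NM_032398, chromosome 8, 71497753 to 71511806) had FPKM of 73.9, 59.8 and 71.0 in Saline, 14.7, 18.4 and 10.3 in OVA and 37.4, 39.4, 20.7 and 23.8 in Herb. The groups were separate, and Herb replicates 3 and 4 were the closest to OVA. Plvap fell by 2.19 in OVA vs. Saline (SE 0.29, limma adjusted p = 0.00025) and rose by 1.00 in Herb vs. OVA (SE 0.27, adjusted p = 0.0173), and was lower in Herb than in Saline by -1.19 (SE 0.27, adjusted p = 0.0168). The call in Herb vs. OVA was lost without OVA replicate 3 (0.79, limma adjusted p = 0.058), and that in Herb vs. Saline without Saline replicate 1 (-1.13, adjusted p = 0.0542) or 3 (-1.16, adjusted p = 0.0542). After rescaling the OVA vs. Saline difference of -1.07 passed (limma adjusted p = 0.00708), and those of Herb vs. OVA (0.35, adjusted p = 0.336) and Herb vs. Saline (-0.72, adjusted p = 0.0559) did not.

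Gpihbp1 encodes the protein that carries lipoprotein lipase to the capillary lumen. It (NM_026730, chromosome 15, 75596630 to 75598213) had FPKM of 36.7, 73.2 and 33.3 in Saline, 12.5, 19.2 and 2.6 in OVA and 11.1, 7.60, 15.9 and 4.73 in Herb. In contrast to the members above, its Herb libraries lay within the OVA range. The OVA vs. Saline difference was -2.20 (SE 0.64, limma adjusted p = 0.0143), the Herb vs. OVA difference 0.01 (SE 0.60, adjusted p = 0.988) and the Herb vs. Saline difference -2.19 (SE 0.60, adjusted p = 0.0294). After rescaling none passed, with -1.13 in OVA vs. Saline (limma adjusted p = 0.213) and -1.72 in Herb vs. Saline (adjusted p = 0.0972). Without Saline replicate 2 the deposited OVA vs. Saline value was -1.85 (limma adjusted p = 0.0528), and without OVA replicate 3 it was -1.47 (adjusted p = 0.0328). The Herb vs. Saline call was lost without Saline replicate 1, 2 or 3 or Herb replicate 4 (limma adjusted p of 0.0643, 0.105, 0.0593 and 0.0713).

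Vwf encodes von Willebrand factor. It (NM_011708, chromosome 6, 125552948 to 125686679) had FPKM of 21.2, 13.9 and 20.7 in Saline, 11.8, 15.9 and 8.65 in OVA and 21.8, 21.7, 20.7 and 14.6 in Herb, and all groups overlapped. Its OVA vs. Saline difference of -0.59 did not pass (SE 0.25, limma adjusted p = 0.0701), its Herb vs. OVA difference of 0.68 passed narrowly (SE 0.24, adjusted p = 0.0445), and Herb vs. Saline was 0.09 (adjusted p = 0.815). The sign in OVA vs. Saline depended on the scaling, with 0.50 on the 75th percentile scale (adjusted p = 0.129 in limma) and 0.83 after quantile normalization (adjusted p = 0.0352). Without Saline replicate 2 or OVA replicate 2 the deposited difference passed (-0.78 and -0.79, limma adjusted p = 0.0341 and 0.0265). The Herb vs. OVA call held only without Saline replicate 2, OVA replicate 2 or Herb replicate 4, and the 7 other omissions gave a limma adjusted p between 0.0555 and 0.147.

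Tie1 encodes an orphan receptor that modulates the signal of Tek. It (NM_011587, chromosome 4, 118471191 to 118489849) had FPKM of 29.2, 16.7 and 30.7 in Saline, 21.9, 5.37 and 10.7 in OVA and 24.0, 18.4, 20.01 and 19.3 in Herb. OVA replicate 1 lay within the Saline range. As deposited the OVA vs. Saline difference of -1.10 passed (SE 0.42, limma adjusted p = 0.0431), but the rescaled value was -0.01 (adjusted p = 0.984), and the deposited call held only without Saline replicate 2 or OVA replicate 1. The other 8 omissions gave values from -1.10 to -0.65 (limma adjusted p from 0.0554 to 0.133). Herb vs. OVA passed only without OVA replicate 1 (1.31, limma adjusted p = 0.0258). With all libraries Herb vs. OVA (0.84, limma adjusted p = 0.106) and Herb vs. Saline (-0.27, adjusted p = 0.638) did not pass.

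The sequence upstream of the transcription start was given for 5 of the 10 members in the RefSeq promoter table of GRCm38.p6, Cldn5, Tek, Tie1, Ednrb and Car4. The 250 bases before the start of 4 of them are printed from 5′ to 3′, of 3 members called lower in OVA on both scales and of Tie1, whose call did not hold after rescaling. Capitals mark CACCC or its complement GGGTG, the core letters that Krüppel-like factors of endothelium bind. The positions are chr16:18776597-18776846 on the plus strand for Cldn5, chr14:103843702-103843951 on the minus strand for Ednrb, within the span of the gene, chr11:84957504-84957753 on the plus strand for Car4 and chr4:118489850-118490099 on the minus strand for Tie1.
Cldn5 promoter: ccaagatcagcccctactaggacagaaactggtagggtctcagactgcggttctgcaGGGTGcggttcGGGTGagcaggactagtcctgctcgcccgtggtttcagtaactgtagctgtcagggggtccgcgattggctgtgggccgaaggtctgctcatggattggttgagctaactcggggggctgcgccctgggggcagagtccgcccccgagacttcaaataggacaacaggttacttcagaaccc
Ednrb promoter: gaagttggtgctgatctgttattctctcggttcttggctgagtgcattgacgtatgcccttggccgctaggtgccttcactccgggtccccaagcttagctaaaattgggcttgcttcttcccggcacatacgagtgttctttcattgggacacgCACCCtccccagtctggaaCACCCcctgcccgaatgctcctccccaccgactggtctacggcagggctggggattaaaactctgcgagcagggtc
Car4 promoter: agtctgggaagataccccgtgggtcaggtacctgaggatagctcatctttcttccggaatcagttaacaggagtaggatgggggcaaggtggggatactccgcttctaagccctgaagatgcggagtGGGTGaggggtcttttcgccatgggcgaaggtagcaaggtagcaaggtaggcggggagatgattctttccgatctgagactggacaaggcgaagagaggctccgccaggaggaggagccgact
Tie1 promoter: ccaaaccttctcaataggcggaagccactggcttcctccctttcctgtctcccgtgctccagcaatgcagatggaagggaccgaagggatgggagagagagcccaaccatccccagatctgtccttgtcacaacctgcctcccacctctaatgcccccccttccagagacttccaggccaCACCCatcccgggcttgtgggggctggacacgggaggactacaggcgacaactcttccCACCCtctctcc
Cldn5, Tie1 and Ednrb held 2 such matches each, and Car4 and Tek 1 each, but 52.0% of the 32851 promoters of this table hold at least 1. Neither CAGGAAG, letters bound by ETS factors (10.8% of all promoters), nor AGATAAG, letters bound by GATA factors (2.74%), was found on either strand in the 5 windows. Only these exact letters were searched, so other sites of these factors were not counted. The windows of Cldn5, Ednrb and Car4 held 12, 11 and 11 CpG dinucleotides, that of Tie1 6 and that of Tek 2, where the median of all promoters was 6. Their GC content was 59.6%, 56.8%, 56.4%, 60.4% and 51.2% in this order, against a median of 52.4%.

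Tek encodes the angiopoietin receptor Tie2, and its RefSeq rows (chromosome 4, 94739086 to 94874976) held few fragments. The sum of the 3 rows was 1.02, 0.83 and 1.62 FPKM in Saline, 0.55, 2.71 and 0.29 in OVA and 0.47, 7.41, 3.68 and 1.36 in Herb, and no difference passed (-0.13 in OVA vs. Saline, SE 0.62, limma adjusted p = 0.871). The rows of the table stand in the order of their genomic start in 98.4% of 31922 neighbouring pairs, and on both sides of the Tek rows stand 8 transcript models that were assembled from the reads, have no symbol and share 1 locus number. Their sum was 50.2, 56.9 and 89.5 FPKM in Saline, 20.6, 16.9 and 7.88 in OVA and 41.7, 31.4, 21.8 and 17.5 in Herb, so that most of the signal at this place was not in the rows named Tek. No other member had models that share a locus number on both sides of its rows. Models without a symbol also stood beside the rows of Pecam1, Cdh5, Cldn5, Vwf, Tie1, Ednrb and Gpihbp1. They were not added to these genes, and whether they belong to them was not tested. The files give no coordinates for the 8 models at Tek, so their assignment to Tek rests on their place and number alone, and it was looked for after the low Tek values had been seen. With these models added, Tek was lower in OVA than in Saline by -2.03 (SE 0.42, limma adjusted p = 0.00238), and the Herb vs. OVA value was 0.94 (adjusted p = 0.0764). The most abundant of the 8 models varied from 9.34 to 55.2 FPKM within Saline and from 0 to 28.1 within Herb. Without this model the OVA vs. Saline value was -1.64 (limma adjusted p = 0.0108). After rescaling, neither sum passed, with -0.91 for all models (limma adjusted p = 0.103) and -0.56 without the most abundant (adjusted p = 0.31).

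**Figure D2:**
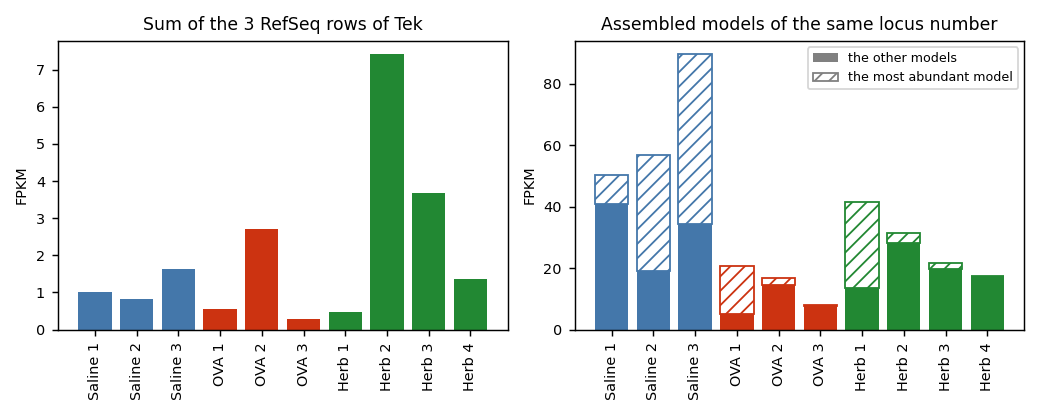
FPKM per library (y axes, linear from 0, different scales) of the RefSeq rows of Tek (left) and of the 8 assembled models that share a locus number on both sides of these rows (right), with the most abundant model hatched; blue is Saline, red OVA and green Herb. The RefSeq rows reach at most 7.41 FPKM, in Herb replicate 2, whereas the models sum to between 50.2 and 89.5 FPKM in Saline and between 7.88 and 20.6 FPKM in OVA.

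Over the 10 members, 8 were called lower in OVA vs. Saline as deposited (limma adjusted p under 0.05), but 57.9% of the 11205 gene sums tested were called lower as well. The median of the members was -1.93 and that of all gene sums -0.75. After rescaling 5 of the 10 members were called lower (Cdh5, Ednrb, Plvap, Car4 and Cldn5), against 17.2% of all gene sums, with medians of -0.81 and 0.08. In Herb vs. OVA 6 members were called higher as deposited, where 44% of all gene sums were, with medians of 0.92 and 0.48. After rescaling 0 members were called in limma (3 at an unadjusted p under 0.05, Cdh5, Ednrb and Cldn5), and 0.348% of all gene sums were called higher. In Herb vs. Saline 5 members were called lower as deposited (22.7% of all gene sums) and 3 after rescaling, Cdh5, Ednrb and Car4 (5.09%), with member medians of -0.90 and -0.43. The deposited count was 3 without Saline replicate 1 or 2 and 2 without Saline replicate 3. The rescaled count was 0 without any 1 of the Saline libraries or of Herb replicates 1, 3 and 4, so that the rescaled calls of Cdh5, Ednrb and Car4 were all lost there. The OVA vs. Saline and Herb vs. OVA comparisons share the OVA libraries, and a low OVA value enters both.

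Without overlap between the groups, 7 members were lower in OVA than in Saline (63% of all gene sums) and 5 after rescaling (23.3%). All Herb libraries were above all OVA libraries for 6 members as deposited (49.6%), and 1, Cdh5, after rescaling (11%). Cdh5, Ednrb, Car4, Gpihbp1 and Plvap had all Herb libraries below all Saline libraries on both scales, which held for 36.6% of all gene sums as deposited and 14.7% after rescaling. Cdh5 and Ednrb were called lower in OVA vs. Saline under each of the 4 scalings tried, with values between -3.25 and -1.54 for Cdh5 and between -2.91 and -1.65 for Ednrb.

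**Figure D3:**
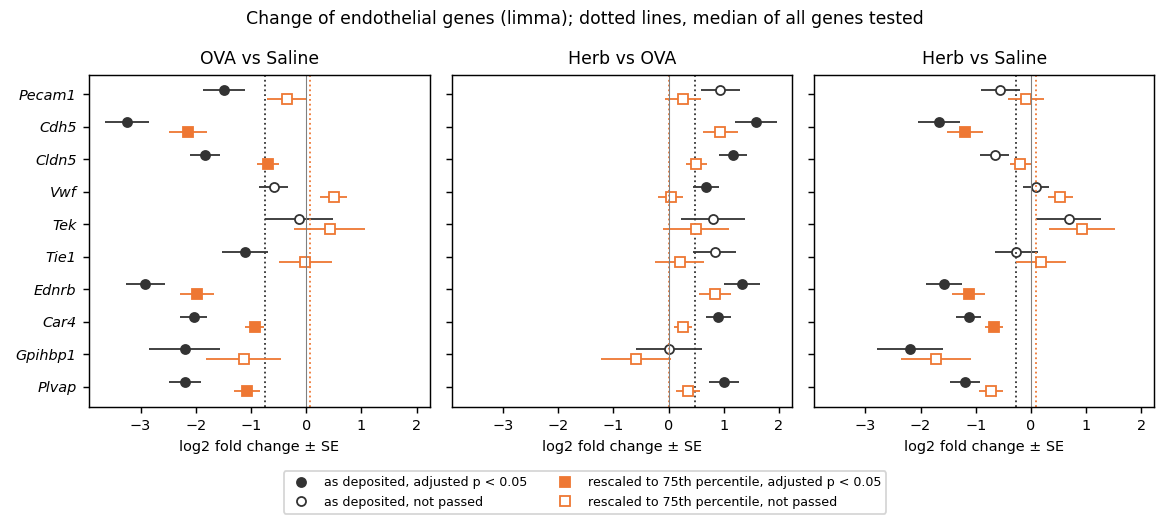
Log2 fold change of log2(FPKM + 1) with its SE (x axis) for the 10 genes in the 3 comparisons, as deposited (dark circles) and after rescaling to a common 75th percentile (orange squares); filled symbols passed an adjusted p of 0.05 in limma, and dotted lines mark the median of all 11205 gene sums. Cdh5 and Ednrb lie farthest to the left in OVA vs. Saline on both scales (-3.25 and -2.91 as deposited), and no orange symbol is filled in Herb vs. OVA.

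For 7 members the table has a single row. Of the 17 rows 13 passed the minimum of 1 FPKM on average, the others being the 3 Tek rows and the Ednrb row NM_001276296, which was listed at 0 in all libraries. Of these 13 rows 10 were called lower in OVA vs. Saline (41.1% of the 30194 rows tested), 6 higher in Herb vs. OVA (31.7%) and 4 lower in Herb vs. Saline (6.26%). After rescaling 7 rows were called lower in OVA vs. Saline (13.4% of all rows), 0 higher in Herb vs. OVA (limma, 3 at an unadjusted p under 0.05, 0.242% of all rows) and 2 lower in Herb vs. Saline (2.61%). The deposited count in Herb vs. OVA was 0 without OVA replicate 1, 2 without OVA replicate 3 and 3 without Herb replicate 1 or 2, and that in Herb vs. Saline was 0 without any 1 of the Saline libraries or of Herb replicates 1, 3 and 4. The Pecam1 signal was spread over NM_001305157, NM_008816 and NM_001032378, which held 31.6%, 29.4% and 35.3% of it on average in Saline, 37.3%, 31.8% and 29.6% in OVA and 37.9%, 32.7% and 27.5% in Herb, with SDs between 0.82 and 11.8 percentage points. NM_001032378 had FPKM of 37.7, 26.4 and 24.1 in Saline and of 7.48, 9.02 and 8.89 in OVA, so that Saline replicate 3 was low in the 2 other main rows and not in this one. The remaining row, NM_001305158, was listed at 0 in OVA replicates 1 and 2 and in Herb replicate 1. For Ednrb, NM_007904 held 46.2% ± 9.65 (SD, n = 3) of the signal in Saline and 47.0% ± 16.1 (SD, n = 4) in Herb, with the rest in NM_001136061. In OVA it held 53.9% and 30.4% in replicates 1 and 2 and was listed at 0 in replicate 3. Transcripts of a gene share most of their exons, so the split between rows is an estimate, and an exact 0 can be a failed one.

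A ratio of 2 genes within a library cancels the scaling of that library, apart from the 1 FPKM added to each value. The log2 ratio of Cdh5 to Pecam1 was 0.10, 0.16 and 1.51 in Saline, -1.25, -0.94 and -1.31 in OVA and -0.36, -0.28, -0.74 and -0.69 in Herb. All OVA libraries were lowest, all Saline libraries highest, and Herb lay in between. The difference was -1.76 in OVA vs. Saline (two-sided exact permutation test, p = 0.1, the smallest this design allows), 0.64 in Herb vs. OVA (exact p = 0.0571, the smallest for 3 against 4) and -1.11 in Herb vs. Saline (exact p = 0.0571). Saline replicate 3, in which Pecam1 was low, gave the highest ratio, and without it the OVA vs. Saline difference was -1.30 and the Herb vs. Saline difference -0.65. The log2 ratio of Ednrb to Plvap was -1.62, -1.46 and -1.55 in Saline, -2.36, -2.06 and -2.37 in OVA and -2.20, -1.64, -2.08 and -1.81 in Herb. It was thus lower in OVA than in Saline by -0.72 without overlap (exact permutation p = 0.1) and lower in Herb than in Saline by -0.39 (exact permutation p = 0.0571), and Herb overlapped OVA (0.33, exact permutation p = 0.171). With the most abundant row of each gene in place of the sums, the OVA vs. Saline difference of this ratio was -0.21 (exact permutation p = 0.5). The ratios of Car4 to Gpihbp1 and of Tek to Tie1 overlapped in all comparisons (exact permutation p from 0.171 to 0.971). Over the 12 tests of 4 ratios no adjusted p was under 0.229 (Benjamini-Hochberg, exact permutation test). As no single exact p can fall under 0.0571 with these group sizes, an adjusted p under 0.05 was not possible, whatever the values.

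**Figure D4:**
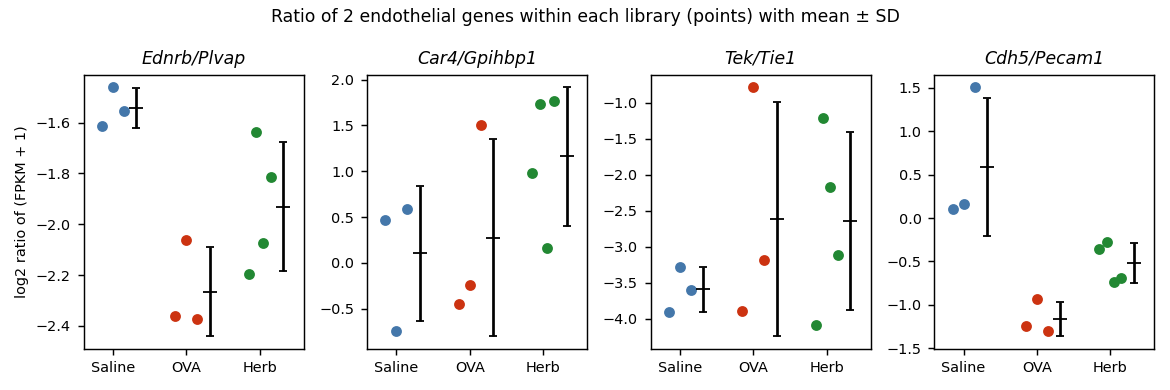
Log2 ratio of 2 members within the same library (y axes, ratio of FPKM + 1) in Saline (n = 3), OVA (n = 3) and Herb (n = 4); points are libraries, and the black bar is the mean with the SD. The Cdh5 to Pecam1 ratio is between -1.31 and -0.94 in OVA, between -0.74 and -0.28 in Herb and between 0.10 and 1.51 in Saline, without overlap, and the ratios of Car4 to Gpihbp1 and Tek to Tie1 overlap.

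Other genes of the same vessels and pathways were examined in lists, of which 149 of 190 different genes were tested. As deposited 110 of these 149 were called lower and 1 higher in OVA vs. Saline (limma), and after rescaling 64 lower and 16 higher. Of all gene sums in this comparison 57.9% were called lower and 3.28% higher as deposited, and 17.2% lower and 24.1% higher after rescaling. In Herb vs. OVA 44% were called higher as deposited and 0.348% after rescaling. The count of each list is to be read against these shares. Among 12 junction and surface genes of endothelium 8 of the 11 tested were called lower as deposited and 8 after rescaling, where Mcam was higher, and 7 were called higher in Herb vs. OVA as deposited. S1pr1, the sphingosine-1-phosphate receptor that tightens the endothelial barrier, had means of 78.0, 7.17 and 28.1 FPKM in Saline, OVA and Herb, with log2 fold changes of -3.58 in OVA vs. Saline (limma adjusted p = 0.000878) and 2.003 in Herb vs. OVA (adjusted p = 0.0211). Of 8 genes of caveolae, the flask-shaped pits of the capillary surface, 7 were called lower as deposited and 4 after rescaling. The example was Cav2, with -3.68 in OVA vs. Saline (limma adjusted p = 0.000149) and 1.60 in Herb vs. OVA (adjusted p = 0.00881). Cavin1, Cavin2 and Cavin3 were found under their older symbols.

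Of the aerocyte capillary genes 6 of 8 were called lower as deposited and 3 after rescaling (Fibin, Kdr and Emp2). Emp2 differed by -2.95 in OVA vs. Saline (limma adjusted p = 0.000167) and -1.82 after rescaling, and Fibin was higher in Herb vs. OVA by 1.64 (adjusted p = 0.0154). Of the general capillary genes 6 of 8 were called lower as deposited and 4 after rescaling. Tmem100, a target of BMP signalling in endothelium, had FPKM of 51.3, 57.1 and 50.9 in Saline, 0.61, 4.13 and 1.99 in OVA and 14.0, 26.6, 7.70 and 9.44 in Herb (-4.21 in OVA vs. Saline, limma adjusted p = 0.000163, and 2.26 in Herb vs. OVA, adjusted p = 0.00742). Nos3, the endothelial nitric oxide synthase, went the other way on both scales. Its FPKM were 1.43, 0.64 and 1.31 in Saline, 3.84, 2.84 and 2.15 in OVA and 3.21, 2.52, 3.95 and 3.15 in Herb, and was higher in OVA vs. Saline by 0.89 (limma adjusted p = 0.00503) and 1.66 after rescaling (adjusted p = 0.0019). Its Herb vs. OVA value was 0.10 (limma adjusted p = 0.686).

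Arterial genes were called lower in 6 of 7 tested (3 after rescaling), venous genes in 5 of 6 (4 after rescaling) and lymphatic endothelial genes in 5 of 5 (2 after rescaling). The examples were Mgp (-2.46, limma adjusted p = 0.00334) and Efnb2 (1.39 in Herb vs. OVA, adjusted p = 0.0106) for arteries and Ackr3 (-1.76, adjusted p = 0.000178) and Slc6a2 (1.59 in Herb vs. OVA, adjusted p = 0.00716) for veins. After rescaling Mgp did not pass in OVA vs. Saline (-1.36, limma adjusted p = 0.0563). For lymphatics the example was Lyve1, the hyaluronan receptor (-2.85, limma adjusted p = 0.000823, and 1.90 in Herb vs. OVA, adjusted p = 0.011). Of 12 endothelial transcription factors tested 8 were called lower as deposited and 2 after rescaling (Gata2 and Foxf1). The rescaled count is near the share of all gene sums (17.2%). Erg, which maintains endothelial identity, was lower by -2.81 (limma adjusted p = 0.0056) and by -1.96 after rescaling (adjusted p = 0.066), and Foxf1 was higher in Herb vs. OVA by 1.35 (adjusted p = 0.0111).

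The partners of single members were sorted by pathway. Of 5 genes around the Tie receptors 4 were called lower as deposited (2 lower and 1 higher after rescaling). Angpt1, the ligand that activates Tek, had FPKM of 20.1, 19.9 and 21.7 in Saline, 2.21, 4.30 and 1.07 in OVA and 9.51, 12.9, 2.33 and 5.42 in Herb (-2.72 in OVA vs. Saline, limma adjusted p = 0.00139, and -1.78 after rescaling). Ptprb, the phosphatase that acts on Tek, was higher in Herb vs. OVA by 1.55 (limma adjusted p = 0.0226). In the endothelin pathway 3 of 5 were called lower (2 after rescaling), which as deposited is near the share of all gene sums. The example was the converting enzyme Ece1 (-4.78, SE 0.91, limma adjusted p = 0.00155, and -4.01 rescaled, adjusted p = 0.00944). Ece1 was uneven within groups, with FPKM of 68.4, 44.8 and 70.9 in Saline, 0.25, 0.23 and 6.18 in OVA and 33.2, 22.5, 3.12 and 5.05 in Herb. Ednra, the other endothelin receptor, was higher in Herb vs. OVA by 0.88 (limma adjusted p = 0.0121). Edn1, the ligand, had means of 1.83, 2.71 and 1.03 FPKM and passed in no comparison on either scale.

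Of 7 genes of lipoprotein lipase and fatty acid uptake 5 were called lower as deposited (2 lower and 2 higher after rescaling). Lpl, the enzyme that Gpihbp1 carries, differed by -3.85 in OVA vs. Saline (limma adjusted p = 0.000949), and Fabp5 by 0.93 in Herb vs. OVA (adjusted p = 0.0132). Of 4 other carbonic anhydrases 3 were called lower (after rescaling 0 lower in limma, 2 at an unadjusted p under 0.05, and 1 higher), with Car2 at -1.78 (limma adjusted p = 0.00243) and Car8 at 0.80 in Herb vs. OVA (adjusted p = 0.0262). Of 5 genes of von Willebrand factor storage and cleavage 2 were called lower, a smaller share than that of all gene sums (after rescaling 0 lower in limma, 1 at an unadjusted p under 0.05, and 1 higher), and Rab27a of the storage organelles differed by -1.34 in OVA vs. Saline (limma adjusted p = 0.000453) and 0.85 in Herb vs. OVA (adjusted p = 0.00918). Both leukocyte adhesion molecules tested, Icam1 and Vcam1, were called lower as deposited, and Icam1 also after rescaling (-2.09 and -0.996, limma adjusted p = 0.000368 and 0.0109). Sele, Selp and Madcam1 averaged under 1 FPKM. In Herb vs. OVA Vcam1 was higher by 0.92 (limma adjusted p = 0.0344). After rescaling, 1 of the 149 list genes was called in Herb vs. OVA, the fibroblast collagen Col1a2 (41 higher and 1 lower at an unadjusted p under 0.05).

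Markers of other lung cells are given beside the endothelial genes, to be read against the same shares of all gene sums. In OVA vs. Saline 7 of 7 alveolar type 1 genes (6 after rescaling), 7 of 9 alveolar type 2 genes (6), 7 of 8 pericyte genes (1 lower and 2 higher), 5 of 7 fibroblast genes (4 lower and 2 higher) and 4 of 5 erythroid genes (4) were called lower. The same held for 7 of 9 pan-leukocyte genes (3) and 2 of 4 platelet genes (1 lower and 1 higher), the latter a smaller share than that of all gene sums as deposited. It also held for the 3 genes tested of the 8 in the eosinophil list, Siglecf, Ear1 and Ear2 (3). The granule genes Prg2 and Epx were too low to be tested, and Prg2 did not follow this direction (values below). Smooth muscle genes were called lower in 0 of 6 (limma, 0 also at an unadjusted p under 0.05) and higher in 4 of 6 after rescaling. In Herb vs. OVA as deposited 44% of all gene sums were called higher. The counts here were 6 of 7 alveolar type 1, 6 of 9 alveolar type 2, 3 of 8 pericyte, 3 of 7 fibroblast and 4 of 5 erythroid genes. For the remaining lists they were 6 of 9 pan-leukocyte, 3 of 4 platelet, 1 of 3 eosinophil and 1 of 6 smooth muscle genes. The pericyte, fibroblast, eosinophil and smooth muscle counts were near or below that share. The examples in OVA vs. Saline, the lowest log2 fold changes among calls without overlap, were Hopx (-3.13), Sftpc (-3.27), Cox4i2 (-1.63), Inmt (-4.01), Hba-a2 (-7.24), Cd53 (-2.19), Ppbp (-1.61) and Ear1 (-2.88). Of these only Cox4i2 did not pass after rescaling (-0.64, limma adjusted p = 0.0594). The corresponding highest log2 fold changes in Herb vs. OVA were Clic5 (1.70), Lamp3 (1.82), Rgs5 (1.20), Col1a2 (4.94), Hba-a2 (4.91), Cd53 (1.33), Pf4 (0.88), Ear2 (0.998) and Tagln (0.74).

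The summed level of the alveolar type 1 list was 761.6 to 906.3 FPKM in Saline, 56.2 to 192.3 in OVA and 199.1 to 460.7 in Herb, and that of the pericyte list 60.03 to 65.5, 19.02 to 31.7 and 35.3 to 52.5 FPKM. The sum was 3428 to 4480, 480.6 to 838.8 and 1110 to 2026 FPKM for alveolar type 2 genes and 621.7 to 694.5, 71.8 to 160.3 and 185.9 to 398.1 FPKM for fibroblast genes. The lists of blood cells gave 5735 to 6971, 31.0 to 561.5 and 1078 to 1584 FPKM for erythroid genes and 132.2 to 185.8, 45.5 to 74.4 and 78.9 to 146.1 FPKM for pan-leukocyte genes. Platelet genes summed to 11.2 to 14.8, 4.24 to 7.31 and 10.8 to 13.9 FPKM and eosinophil genes to 24.4 to 48.4, 4.76 to 10.3 and 10.1 to 14.6 FPKM. Smooth muscle genes alone did not follow this order, with 29.1 to 38.4, 31.02 to 45.2 and 36.4 to 68.5 FPKM. None of these markers was listed at 0 in all libraries, and the part of cell composition in the endothelial values was not tested. Of the eosinophil granule genes, which were not tested because they averaged under 1 FPKM, Prg2 was listed at 0 in all Saline libraries, at 1.25, 1.65 and 0.88 FPKM in OVA and at 0.98, 0, 0.73 and 2.14 in Herb, and Epx reached at most 0.114 FPKM. The study counted more eosinophils in lavage fluid of OVA mice than of controls, and the RNA values of this list do not measure cell numbers.

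The average course of the 10 members across the libraries, taken after rescaling and with each gene centred on its own mean, was 0.39 ± 0.09 (SD, n = 3) in Saline, -0.35 ± 0.47 (n = 3) in OVA and -0.02 ± 0.26 (n = 4) in Herb on the log2 scale. Cldn5 (0.19), Car4 (0.20) and Plvap (0.21) were nearest to this course by root mean square difference over the 10 libraries, and Gpihbp1 (0.85) and Tek (0.83) farthest. Tie1 (0.68) and Cdh5 (0.58) were also farther from it than the median of all genes (0.55), and Vwf and Ednrb (0.53 each) were just under that median. This difference grows with the size of a change as well as with a different course. Cdh5 and Ednrb kept the order of the mean course. Their rescaled means in Saline, Herb and OVA were 93.2, 42.1 and 21.3 FPKM for Cdh5 and 16.4, 7.22 and 3.66 FPKM for Ednrb. Each member is part of the mean with which it is compared. The 5 other genes with the most similar course were Stmn2 (0.11), Hoxb5 (0.11), Armcx1 (0.12), Msrb3 (0.12) and Stag2 (0.12), where the median of all genes was 0.55. Of these Stag2, a cohesin subunit, had FPKM of 30.7, 32.6 and 31.6 in Saline, 8.66, 12.5 and 6.03 in OVA and 20.8, 21.9, 16.1 and 15.7 in Herb.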

How the data were processed

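RNA-seq had been performed on lung tissue of 10 mice, and groups were taken from the sample titles. The authors trimmed the reads (cutadapt 1.10 in the submitters' processing notes), aligned them to mm10 with HISAT2, assembled transcripts with StringTie 1.3.3b and deposited 1 table of FPKM with a row per transcript. The study tested its groups with edgeR, a count model that FPKM do not allow. FPKM are shares of a library, so an RNA class that takes more fragments lowers all other values.

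Here the rows of a symbol were summed, and limma 3.58.1 (R 4.3.3, trended eBayes, 3 group means, no covariates) was run on log2(FPKM + 1) over the 11205 sums, or 30194 rows, that averaged 1 FPKM or more. P-values were adjusted by Benjamini-Hochberg over all of them, and a call is an adjusted p under 0.05. Fold changes on this scale understate those of low genes. For ratios of members an exact permutation test, two-sided, was used. The fit was tested on simulated data without a shift in composition between groups, so that test does not bear on the choice of scaling. Depth was estimated from the value of 1 fragment in genes with a single row, and counting errors cover counting only. Python 3.11.15 with pandas 2.3.3, scipy 1.17.1 and matplotlib 3.10.9 was used otherwise. Gene positions and promoters are those of RefSeq for GRCm38.p6, the assembly that mm10 represents.

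The members and the 23 gene lists were chosen with earlier results of these data known. All members are named. From each list, the genes named are those with the largest positive and negative value among calls without overlap in OVA vs. Saline and in Herb vs. OVA. Edn1, Prg2, Epx, Sele, Selp and Madcam1 were named beyond this rule, after their values were seen. The most similar genes are the 5 nearest in profile. Alternatives were other scalings, pseudocounts and filters, a replicate block and leaving out each library. Libraries are separate mice per the study, and the replicate spread is between these mice.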

Additional observations from a re-analysis of the deposited data

Results flagged for a closer look

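In 24 series of the 4 Herb libraries, made up of the 10 member sums, the 10 rows of the members with several rows and the 4 ratios, the highest and lowest library were compared with the others by Dixon's criterion, which flags about 1 in 20 such series by chance. The Pecam1 row NM_001305158 was listed at 0 in Herb replicate 1, against 1.25 to 1.41 FPKM in the rest of that group. Vwf was 14.6 FPKM in Herb replicate 4, and the 3 others were between 20.7 and 21.8 FPKM. Groups of 3 were not examined in this way.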

How the results depend on the processing

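Member sums called lower in OVA vs. Saline were 8 as deposited, 5 after rescaling to the 75th percentile (also with the replicate block, a combination added after seeing the data), 2 after quantile normalization and 3 after rescaling to the summed FPKM of protein-coding RefSeq rows, and under each of the last 2 settings 1 (Vwf) was called higher. Calls higher in Herb vs. OVA went from 6 to 0 under every other scaling, and calls lower in Herb vs. Saline from 5 to 3 after rescaling to the 75th percentile and to 0 under the 2 other scalings and under this rescaling with the replicate block. For rows, the 6 called higher in Herb vs. OVA became 0 after rescaling, and the 4 called lower in Herb vs. Saline became 2 after rescaling, 2 without the filter and 0 with the replicate block.
Values that changed sign in OVA vs. Saline were, under quantile normalization, Pecam1 0.43, Cldn5 0.028, Vwf 0.83, Tek 0.35 and Tie1 0.41; under the sum of protein-coding rows, Pecam1 0.022, Vwf 0.86, Tek 0.62 and Tie1 0.35; and under the 75th percentile, Vwf 0.50 and Tek 0.42. In Herb vs. OVA they were Pecam1 -0.091, Vwf -0.12, Tie1 -0.0077 and Gpihbp1 -0.73 (quantile), Vwf -0.14 and Gpihbp1 -0.77 (protein-coding sum) and Gpihbp1 -0.59 (75th percentile). In Herb vs. Saline they were Pecam1 0.34, Cldn5 0.19 and Tie1 0.41 (quantile), Pecam1 0.11, Cldn5 0.0076 and Tie1 0.38 (protein-coding sum) and Tie1 0.19 (75th percentile). Tek with the assembled models was -1.09 there, and -0.50 without the most abundant. The ratio of Ednrb to Plvap in Herb vs. OVA was -0.085 with the most abundant row of each gene, and that of Tek to Tie1 0.39 with a pseudocount of 0.1.

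Leaving out 1 library gave 7 to 8 members lower in OVA vs. Saline (4 to 5 after rescaling, with 0 to 1 higher), 4 to 6 higher in Herb vs. OVA (0 after rescaling) and 2 to 6 lower in Herb vs. Saline (0 to 5 after rescaling, 2 as deposited without Saline replicate 3). Rows called ranged from 8 to 10, 0 to 7 (0 without OVA replicate 1) and 0 to 6. The range of Tek was -0.59 to 0.17 in OVA vs. Saline, that of Gpihbp1 -0.72 to 0.52 in Herb vs. OVA and that of Vwf -0.10 to 0.22 in Herb vs. Saline. For the ratio of Car4 to Gpihbp1 in OVA vs. Saline the range was -0.45 to 0.53, and that of Tek to Tie1 in Herb vs. OVA was -0.66 to 0.89. Same-numbered libraries did not deviate together (correlations from -0.00869 to 0.0953), so the replicate block was an alternative only, and with it Pecam1 passed in Herb vs. OVA (1.06, limma adjusted p = 0.0221), whereas Vwf there (0.81, adjusted p = 0.0555) and Gpihbp1 in Herb vs. Saline (-1.92, adjusted p = 0.0884) did not. The depth limits Tek, Gpihbp1 and Ednrb in OVA most.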
